A study of Mus musculus with 42 samples.

Results

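The proteasome is the protease that breaks down proteins marked with ubiquitin chains. Its 20S core is a barrel of alpha rings, which gate the entrance, and beta rings, in which 3 kinds of subunit cut the substrate. A 19S cap on the barrel's end binds ubiquitin, removes it and unfolds the substrate with a ring of ATPases, and other activators can take the cap's place. Cells use the complex for the turnover of cell cycle regulators and of damaged proteins.

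Genes were taken by symbol: those that begin with Psma, Psmb, Psmc, Psmd or Psme followed by a number, with the 3 immunoproteasome subunits Psmb8, Psmb9 and Psmb10 left out. On the first array design 42 of 21997 probes matched, 1 for each of 42 genes, and on the second design 65 of 36924 probes for 42 genes. Of these, 41 genes lay on both designs, and the first design named 14442 genes in all. The 42 genes of the first design held all 14 subunits of the 20S core, 17 of the 19S cap, 3 chaperones that assist assembly of the cap's base (Psmd5, Psmd9 and Psmd10) and 3 activators (Psme1, Psme3 and Psme4). The other 5 were Psma8 and Psmb11, which replace core subunits in testis and thymus, Psme2b, a near-identical copy of Psme2 whose value is uncertain for that reason, and 2 genes that are no subunits. These 2 were Psmc3ip, a meiotic recombination factor, and Psme3ip1, a protein that binds the activator Psme3.

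RNA of mouse skin and skin tumours was hybridised on 2-colour arrays against a universal mouse reference RNA, and values are log2 of sample over reference after each array was centred on its median. The sources used here do not state which way the deposited ratios run, so every sign below rests on a likely direction. The groups were 6 squamous cell carcinomas, 10 papillomas labelled high-risk, 9 papillomas labelled low-risk and 6 normal skins. All tumours came from female Sencar mice initiated at 7 to 8 weeks of age and given DMBA/TPA, the mutagen and the tumour promoter. The normal skins were untreated and adult, and their labels give no strain, so that treatment, tumour and strain cannot be told apart in any comparison with them. A further 10 papillomas of unknown risk, of the same strain, sex and treatment, lay on the second design and entered no comparison. Whole tissues were used, so in any lower value fewer cells of a type and less RNA per cell cannot be told apart. P-values measure the spread between these samples, some of which share an animal code.

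The labelled arrays measured 16286 to 21494 probes and 31 to 42 of the 42 proteasome probes. By their pattern of empty probes the arrays were divided into 5 sets, a number that was chosen and not estimated. The sets partly coincide with the groups and had a median SD of the ratios of 0.7 to 1.59. Of the normal skins 4 lay in set A beside a single high-risk papilloma, and 1 each in sets C and D beside tumours, while set B was low-risk and set E high-risk papillomas alone. Normal skin 1 and carcinoma 6 were near copies, with r = 0.984 across probes and a median difference in size of 0.04 over the 34 proteasome genes measured on both. Low-risk papilloma 1 was hybridised a second time with swapped dyes, and these arrays correlated at only 0.306 across probes. Its first array was the only one of 31 with the sample in Cy3 whose keratinocyte markers did not show the sign of the others. The markers' medians lay above the reference in every group, at 0.55 to 1.63 in carcinomas, 1.18 to 4.19 in high-risk papillomas, 0.96 to 3.97 in low-risk papillomas and 0.77 to 2.13 in normal skin.

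The promoters of 4 genes are shown because the results turn on them: Psmd12, which differed from normal skin in all tumour groups, Psmd4, the ubiquitin receptor, Psma7, the core subunit with the largest called rise, and Psmb5, a catalytic subunit. Each is the 250 bases before the transcription start from RefSeq, build GRCm38.p6, read 5′ to 3′ on the gene's own strand, with matches to the motifs searched in capitals.
Psmd12, chr11:107479278-107479527, plus strand: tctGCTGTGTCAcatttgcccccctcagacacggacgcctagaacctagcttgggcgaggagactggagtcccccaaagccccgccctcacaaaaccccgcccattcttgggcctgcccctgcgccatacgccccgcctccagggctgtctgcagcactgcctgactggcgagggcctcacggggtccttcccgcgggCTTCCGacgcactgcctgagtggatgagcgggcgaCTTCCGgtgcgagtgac
Psmd4, chr3:95042615-95042864, minus strand: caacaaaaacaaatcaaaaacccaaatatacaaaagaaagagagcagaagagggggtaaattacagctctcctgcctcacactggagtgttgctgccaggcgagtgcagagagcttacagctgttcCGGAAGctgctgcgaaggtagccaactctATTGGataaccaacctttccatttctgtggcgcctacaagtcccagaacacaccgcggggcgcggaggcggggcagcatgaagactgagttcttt
Psma7, chr2:180042465-180042714, minus strand: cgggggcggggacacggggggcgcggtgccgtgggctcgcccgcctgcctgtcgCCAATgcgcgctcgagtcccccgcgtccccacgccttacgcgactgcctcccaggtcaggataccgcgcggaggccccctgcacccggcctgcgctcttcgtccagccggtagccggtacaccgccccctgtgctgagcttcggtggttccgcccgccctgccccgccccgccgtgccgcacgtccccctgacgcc
Psmb5, chr14:54617996-54618245, minus strand: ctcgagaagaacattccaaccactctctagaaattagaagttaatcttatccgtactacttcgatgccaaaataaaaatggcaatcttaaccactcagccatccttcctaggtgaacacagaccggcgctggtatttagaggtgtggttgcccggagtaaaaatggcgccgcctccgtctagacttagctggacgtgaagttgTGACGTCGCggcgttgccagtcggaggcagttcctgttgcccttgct
The motifs, searched on both strands, were the antioxidant response element TGACNNNGC, which is bound by Nfe2l1 and Nfe2l2, the CCAAT box, the ETS core CGGAAG and the cyclic AMP response element TGACGTCA. RefSeq held 38 promoters for 35 of the 42 genes. The ETS core lay in 52.6% of them and in 13.6% of all 32851 promoters. The antioxidant response element lay in 13.2% against 10.2%, the CCAAT box in 39.5% against 33.8%, and the cyclic AMP response element in 0 of 38 against 1.5%. The proteasome promoters were richer in G and C, at a median of 57.6% against 52.4%. In Psmb5 the capitals are an antioxidant response element 47 to 39 bases before the start. In Psmd12 they are the same element on the other strand 247 to 239 bases before it and 2 ETS cores, in Psmd4 an ETS core and a CCAAT box, and in Psma7 a CCAAT box. A match describes the letters only.

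Within tumours, papillomas of high risk were set against those of low risk to ask whether the risk label goes with different expression. No proteasome gene passed limma's test. At a threshold of 0.05 on the adjusted p, 0 of 40 tested genes were called, where 0.667% of all 18901 probes were. Without adjustment 3 of the 40 had a p under 0.05, and 3266 of all probes. Psmc4 and Psmc6, ATPases of the base, were measured in too few samples to be tested. The median log2 change was -0.04 over the core, -0.09 over the cap and 0.02 over all probes. The 7 alpha ring subunits had changes of -0.35 to -0.04 and the 3 catalytic subunits of 0.02 to 0.85, and none of these passed.

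Psmd2, a scaffold of the cap's base, had the smallest p. Its values were -1.31 to 2.59 with a median of -0.10 in high-risk papillomas, against 0.84 to 1.92 with a median of 1.10 in low-risk papillomas. It lay below the low-risk mean in 9 of 10 high-risk papillomas, and the exception, high-risk papilloma 5, held the highest value of all. The difference was -1.11 ± 0.35 (log2, SE, n = 10 and 9, limma adjusted p = 0.11). Without high-risk papilloma 5 it was the 1 gene called of 40, where 718 of all 18901 probes were.

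Psmb6, the caspase-like catalytic subunit, had values of -0.53 to 2.06 with a median of 0.51 in high-risk papillomas, against -1.11 to 0.62 with a median of -0.10 in low-risk papillomas. The 4 highest, at 0.96 to 2.06, were the 4 high-risk papillomas of array set E. The difference was 0.85 ± 0.32 (SE, n = 10 and 9, limma adjusted p = 0.169). Psmb11, the thymus subunit, differed by -2.36 ± 1.07 and Psmb4, a structural beta subunit, by -0.63 ± 0.33, neither past the test (limma adjusted p = 0.257 and 0.326).

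Carcinomas were set against low-risk papillomas, with 0 of 40 genes called where 1.12% of all probes were. Without adjustment 3 of the 40 had a p under 0.05, and 3044 of all probes. Of the 15 cap subunits tested 13 had a change below 0, with a median of -0.30, and of the 14 core subunits 9, with a median of -0.12, where the median of all probes was -0.01. Psmd9, an assembly chaperone, was -0.38 to 0.13 with a median of -0.02 in carcinomas, against -0.82 to 2.10 with a median of 1.14 in low-risk papillomas. All 6 carcinomas lay below the low-risk mean, inside the wide low-risk range. The difference was -0.87 ± 0.34 (SE, n = 6 and 9, limma adjusted p = 0.19), and without low-risk papilloma 6, the lowest, it was called, as were 731 of all 18901 probes. The other genes with the smallest p were Psme3, the nuclear activator, at -0.68 ± 0.29, Psme2b at -0.58 ± 0.26, and Psmd1, a scaffold of the base, at 0.97 ± 0.51. Limma's adjusted p was 0.238 for Psme3, 0.274 for Psme2b and 0.35 for Psmd1.

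Carcinomas were also set against high-risk papillomas, with 0 of 40 genes called where 0.0423% of all probes were, 0.0212% higher and 0.0212% lower. Without adjustment 2 of the 40 had a p under 0.05, and 1983 of all probes. The median change was 0.00 over the core and -0.01 over the cap, beside -0.01 over all probes. Psme2b had the smallest p, at -0.81 ± 0.28 (limma adjusted p = 0.309, n = 4 and 6). Psmb6 followed, at -0.06 ± 0.60 in carcinomas and 0.74 ± 0.86 in high-risk papillomas (SD, n = 6 and 10), a difference of -0.80 ± 0.36 (limma adjusted p = 0.439). Psma6, an alpha subunit, differed by 0.64 ± 0.31 and Psmb2, a structural beta subunit, by -0.63 ± 0.33, with an adjusted p of 0.479 and 0.498.

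Against normal skin the called genes were 3 of the cap (Psmd12, Psmd4 and Psmd1) and Psme3ip1, all lower in tumours, and 2 of the alpha ring (Psma7 and Psma5), both higher. In low-risk papillomas 6 of 40 genes were called, 2 higher and 4 lower, where 7.55% of all probes were called, 3.94% higher and 3.61% lower. In high-risk papillomas 2 of 40 were called, both lower, where 5.02% of all probes were called, 2.57% higher and 2.44% lower. In carcinomas 1 of 40 was called, lower, where 1.16% of all probes were called and 0.905% were lower. The 3 comparisons share the same 6 normal skins, and none of the 3 shares of called members is read as a result about the group of genes.

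Psmd12, a subunit of the 19S lid, was called in all 3. Its 5 values in carcinomas were 1.90, 1.13, 0.21, 0.70 and 0.54. In high-risk papillomas it ran from 0.20 to 3.26 with a median of 1.69, and in low-risk papillomas from 0.11 to 1.86 with a median of 1.45. In normal skins 2 to 6 it stood at 3.34, 3.00, 3.81, 3.53 and 4.01. Every carcinoma and low-risk papilloma lay below every normal skin measured, while high-risk papilloma 3, at 3.26, overlapped. The probe was empty on normal skin 1 and carcinoma 6, the near-identical arrays. The level was 6.25-fold lower in carcinomas (-2.64 ± 0.48, log2, SE, n = 5 and 5, limma adjusted p = 0.0046), 3.73-fold lower in high-risk papillomas (-1.90 ± 0.42, n = 10 and 5, adjusted p = 0.00788) and 4.68-fold lower in low-risk papillomas (-2.23 ± 0.42, n = 9 and 5, adjusted p = 0.0019).

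Psmd12 was also read within array sets. In set D the 4 carcinomas had 0.21 to 1.90, 1 high-risk papilloma 2.11 and 3 low-risk papillomas 1.09 to 1.56, against 3.34 in 1 normal skin. In set A the 1 high-risk papilloma had 1.62, against 3.00 to 4.01 in 4 normal skins. Values also differed between sets within the high-risk group, at 0.20 to 0.88 in the 4 of set C and 1.76 to 3.26 in the 4 of set E. Blocked on array set, the difference was -2.35 in carcinomas (limma adjusted p = 0.0359), -1.85 in high-risk papillomas (0.0547) and -2.18 in low-risk papillomas (0.279), so the call held in carcinomas alone. With a block on the replicate numbers, which do not pair samples, it was -1.51 in high-risk papillomas, no longer past the test (0.0564). With the range of the arrays' database numbers as a block, the carcinoma difference of -2.80 also missed the threshold (0.056).

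Psme3ip1, the binding protein of the activator Psme3, was 0.25, 0.76, 0.45, 0.44, 0.49 and 0.22 in carcinomas. It ran from -1.25 to 0.48 with a median of -0.18 in high-risk papillomas and from -2.04 to 0.54 with a median of -0.13 in low-risk papillomas. Normal skins 1, 4 and 5 had 0.40, 0.61 and 1.55, and normal skins 2, 3 and 6 lay between 2.90 and 4.00. Normal skins 2, 3, 5 and 6 stood above every tumour, and normal skins 1 and 4 were within the tumours' range. The level was 5.35-fold lower in high-risk papillomas (-2.42 ± 0.43, log2, SE, n = 9 and 6, limma adjusted p = 0.00142) and 5.43-fold lower in low-risk papillomas (-2.44 ± 0.43, n = 9 and 6, adjusted p = 0.000855). In carcinomas it was -1.74 ± 0.47 and did not pass (adjusted p = 0.0591). Neither call held once array set was a block, at adjusted p = 0.113 in high-risk and 0.582 in low-risk papillomas.

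Psmd4, the ubiquitin receptor of the base, was -0.47, 0.01, -0.08, -0.25, -0.12 and 0.19 in carcinomas. It ran from -0.33 to 1.76 with a median of 0.27 in high-risk papillomas and from -1.01 to 0.58 with a median of 0.14 in low-risk papillomas. Normal skins 1 to 6 had 0.23, 0.37, 3.36, 0.51, 1.52 and 3.63, so that normal skins 3 and 6 stood far above the other 4. The carcinomas lay below all normal skins, and the papilloma groups overlapped them. Carcinoma 6, at 0.19, was barely below its near copy normal skin 1, at 0.23. The difference of -1.61 ± 0.41 in low-risk papillomas was called (SE, n = 9 and 6, limma adjusted p = 0.0148), and it was not called without normal skin 3 or without normal skin 6, at -1.26 and -1.21. The differences of -1.72 ± 0.45 in carcinomas and -1.19 ± 0.40 in high-risk papillomas did not pass (limma adjusted p = 0.0512 in carcinomas and 0.0818 in high-risk papillomas). Blocking on array set left -0.80 for low-risk papillomas (adjusted p = 0.911). A block on the replicate numbers, which do not pair samples, left -1.30 (0.0898).

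Skeletal muscle markers were also lower in papillomas than in normal skin. The list's median, over 5 measured of 6 markers, was -0.12 to 1.22 in carcinomas, -1.11 to 0.81 in high-risk papillomas, -1.14 to 0.27 in low-risk papillomas and -0.14 to 3.32 in normal skin. Of the 5 markers 0 were called in carcinomas against normal skin, 2 in high-risk papillomas and 2 in low-risk papillomas, all lower, Acta1 and Tnnc2, proteins of the contractile fibre. In normal skins 1 to 6 the list's median was -0.14, 1.03, 1.99, 3.14, 0.42 and 3.32. It was highest in normal skins 6 and 4, and Psmd4 and Psme3ip1 were highest in 6 and 3. Psmd12, empty in normal skin 1, was also highest in normal skins 6 and 4, at 4.01 and 3.81. It was 3.53 in normal skin 5, where the list's median was 0.42. The part of muscle in the values of Psmd12, Psmd4 and Psme3ip1 was not tested.

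After the genes above, Psmd2 had the next smallest p in high-risk papillomas against normal skin, and Psma3 in carcinomas against normal skin. Psmd2 was -1.31 to 2.59 with a median of -0.10 in high-risk papillomas, against 0.90 to 1.94 in normal skin, a difference of -1.14 ± 0.39 that did not pass (limma adjusted p = 0.0878, lower than the normal mean in 9 of 10). Psma3, an alpha subunit, averaged 0.43 ± 0.27 in carcinomas and -0.10 ± 0.38 in normal skin (SD, n = 6 each), and the difference of 0.53 ± 0.24 did not pass (limma adjusted p = 0.366).

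**Figure D1:**
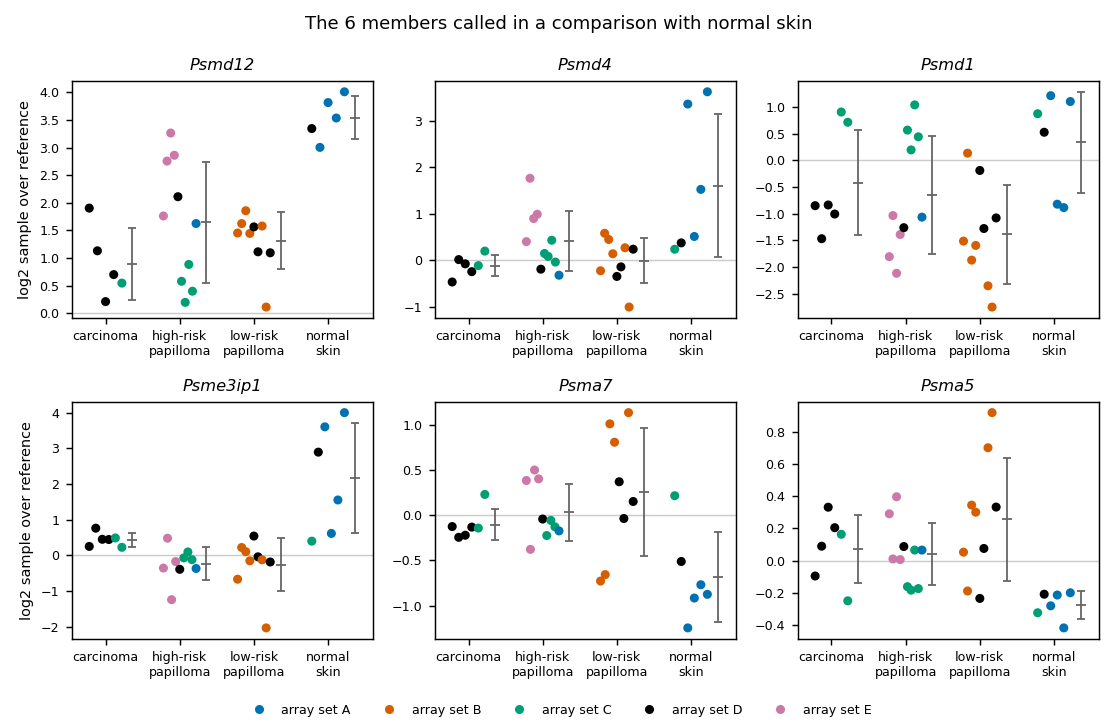
Log2 of sample over reference (y axes) of the 6 proteasome genes called in a comparison with normal skin, by group (x axes). Points are single samples coloured by array set, and bars beside them are mean ± SD. Psmd12 lies at 0.11 to 3.26 in tumours and at 3.00 to 4.01 in normal skin, while Psmd4 in normal skin is spread from 0.23 to 3.63.

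Psmd1, a scaffold of the base, was called in low-risk papillomas. It ran from -2.75 to 0.14 with a median of -1.52 in low-risk papillomas, against 0.88, 0.53, 1.22, -0.82, -0.89 and 1.10 in normal skins 1 to 6. The groups overlapped, since normal skins 4 and 5 lay among the papillomas. The difference was -1.73 ± 0.51 (SE, n = 9 and 6, limma adjusted p = 0.0323). Values also differed between array sets within a group: the 4 high-risk papillomas of set C had 0.20 to 1.04 and the 4 of set E -2.12 to -1.04, and the 2 carcinomas of set C 0.72 and 0.91 against -1.47 to -0.84 in the 4 of set D. Within set D the 8 tumours had -1.47 to -0.19, against 0.53 in the 1 normal skin, and the 4 normal skins of set A alone ran from -0.89 to 1.22. With the set as a block the low-risk difference was -0.83 (adjusted p = 0.896), and without the near-identical pair -1.62 (0.0591). The call was also lost in 7 of 15 fits that left out 1 sample (normal skins 1, 2, 3 and 6 and low-risk papillomas 5, 8 and 9), at -1.97 to -1.55 over the 15 and adjusted p up to 0.0989.

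Psma7 and Psma5, subunits of the alpha ring, were the genes called higher. Psma7 ran from -0.73 to 1.13 with a median of 0.26 in 8 low-risk papillomas, against 0.22, -0.51, -1.25, -0.92, -0.77 and -0.87 in normal skins 1 to 6. Normal skin 1 was the only normal skin above 0, and low-risk papillomas 1, 2, 7 and 10 lay within the range of the normal skins. The level was 1.92-fold higher (0.94 ± 0.27, log2, SE, limma adjusted p = 0.0282). Psma5 ran from -0.24 to 0.92 with a median of 0.30 in 9 low-risk papillomas, against -0.32, -0.21, -0.28, -0.21, -0.42 and -0.20 in the normal skins. All 9 papillomas lay above the normal mean, and the level was 1.44-fold higher (0.53 ± 0.17, SE, limma adjusted p = 0.0475).

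Neither rise was called without the swapped array (adjusted p = 0.117 for Psma7 and 0.27 for Psma5) or with the array set as a block (0.891 and 0.942). With a block on the replicate numbers, which do not pair samples, both missed the threshold as well (0.0805 for Psma7 and 0.118 for Psma5). Leaving out 1 sample at a time, Psma7 lost its call in 7 of 15 fits (normal skins 3, 4, 5 and 6 and low-risk papillomas 4, 5 and 8), at 0.81 to 1.12 and adjusted p up to 0.0923. Psma5 lost its call in 11 of 15 (each normal skin and low-risk papillomas 4, 5, 8, 9 and 10), at 0.45 to 0.59 and adjusted p up to 0.106. Both were called when low-risk papilloma 1 was read from the swapped array alone, an alternative added after the values were seen. Psma3 and Psmb5 were then called in low-risk papillomas as well. On the swapped array the core's median was 0.21, against -1.22 on the other array of that tumour.

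Over the roles, signs were counted without a test. Of the 14 core subunits, 12 had a change above 0 in carcinomas, 11 in high-risk papillomas and 13 in low-risk papillomas, with median changes of 0.17, 0.41 and 0.36. Of the 15 cap subunits tested, 7 were above 0 in carcinomas, 5 in high-risk papillomas and 11 in low-risk papillomas, with medians of -0.05, -0.04 and 0.09. The medians of all probes were 0.00, 0.00 and -0.02, with 49.8%, 49.7% and 48.7% above 0. Beyond Psma5 and Psma7 in low-risk papillomas no core subunit was called. Without adjustment 2 of 14 core subunits in carcinomas, 7 in high-risk and 4 in low-risk papillomas had a p under 0.05. Of all 18901 probes 2142, 3720 and 4427 had one in the same comparisons.

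**Figure D2:**
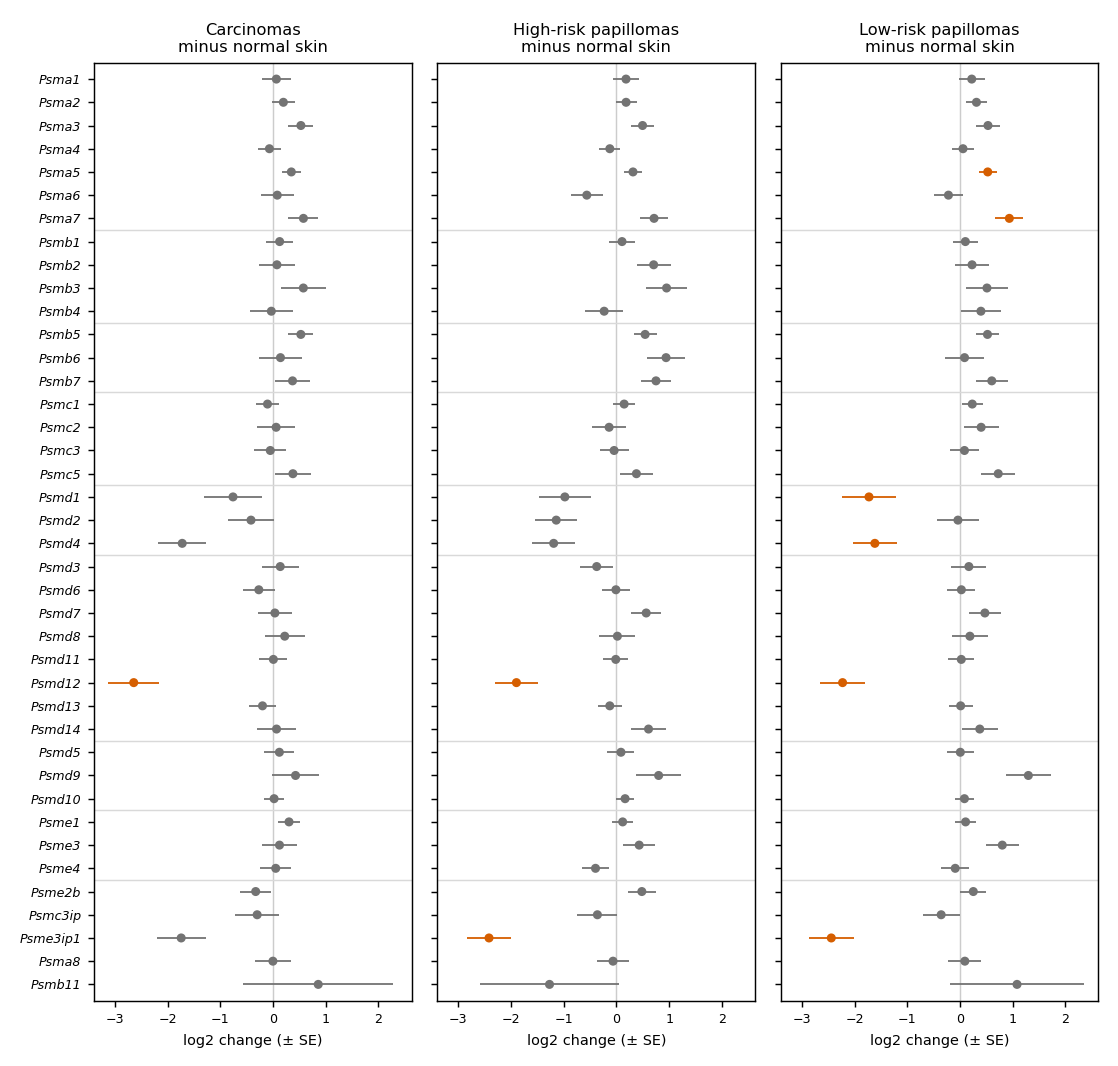
Log2 change ± SE (x axes) against normal skin of the 40 tested proteasome genes (y axis), in carcinomas, high-risk papillomas and low-risk papillomas, with called genes in orange and grey lines between roles. From the top the roles are alpha ring, structural and catalytic beta subunits, base ATPases, scaffolds and receptor, lid, chaperones, activators and other genes. Psmd12 lies at -2.64, -1.90 and -2.23, and most core subunits lie right of 0.

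Sample by sample, the median over the core was -0.06 to 0.33 in carcinomas, -0.18 to 0.51 in high-risk papillomas, -0.56 to 0.77 in low-risk papillomas and -0.51 to 0.22 in normal skin. Normal skin 1, the near copy of carcinoma 6, was the only normal skin above 0, and the other 5 lay at -0.51 to -0.12. The 2 low-risk papillomas below 0 were numbers 1 and 2, and number 1 had -1.22 on its first array and 0.21 on the swapped array. Empty probes were left out of these medians: low-risk papilloma 9 had only 7 core subunits measured and low-risk papilloma 8 only 13 cap subunits. The median over the cap was -0.38 to 0.02 in carcinomas, -0.36 to 0.43 in high-risk papillomas, -0.53 to 0.45 in low-risk papillomas and -0.06 to 0.20 in normal skin, and all groups overlapped.

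**Figure D3:**
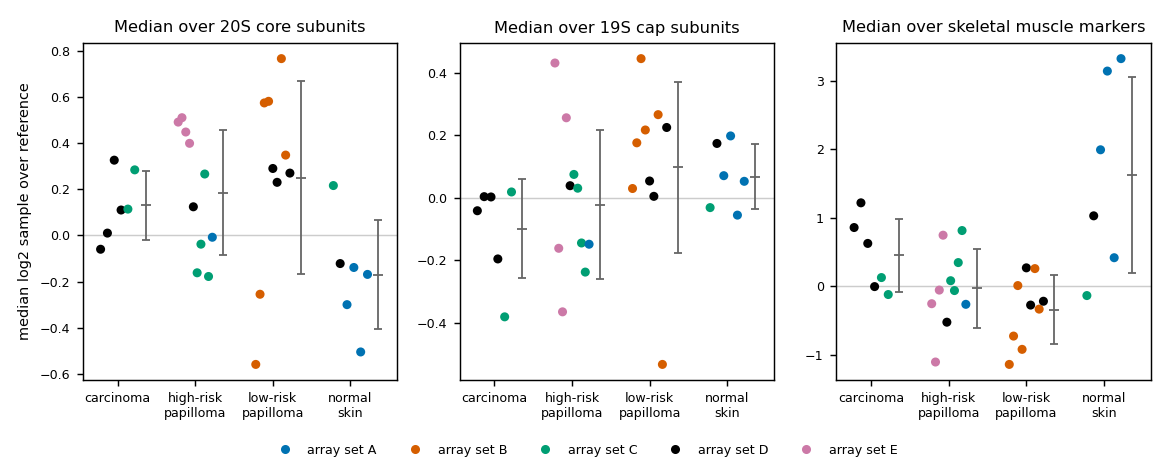
Median log2 of sample over reference (y axes) over the 14 core subunits, 17 cap subunits and skeletal muscle markers, as far as measured. Each sample is a point, by group (x axes), coloured by array set, with mean ± SD beside the points. The core lies between -0.51 and 0.22 in normal skin and reaches 0.77 in low-risk papillomas. The median over the muscle markers reaches 3.32 in normal skin and at most 1.22 in a tumour, while single markers can lie higher.

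Core subunits also varied together from sample to sample. Over the 31 samples the median r between pairs of core subunits was 0.40 (91 pairs, 80.2% above 0). It was 0.05 between cap subunits (105 pairs), 0.11 between core and cap (210 pairs) and 0.03 between all probes measured in every sample. After each array set's mean was taken off, the core's median r was 0.37, and without low-risk papilloma 1 it was 0.39. The samples share arrays, sets and normalization, and these values are a description with no test. Psma7 followed the median of the other core subunits most closely, at r = 0.83, then Psma3 and Psmb5 at 0.79. Psmb4 was the only core subunit with a negative r, -0.30, and had its highest values in low-risk papilloma 9 (2.65) and high-risk papilloma 10 (1.69).

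The 3 catalytic subunits had changes above 0 against normal skin in every tumour group, and none was called. Psmb5, the chymotrypsin-like subunit, was -0.46, -0.11, -0.11, -0.03, -0.40 and -0.56 in carcinomas. It ran from -0.42 to 0.05 with a median of -0.31 in high-risk papillomas and from -1.26 to 0.42 with a median of -0.13 in low-risk papillomas. Normal skins 1 to 6 had -0.58, -0.84, -0.76, -0.70, -0.94 and -1.02. The carcinomas and the 9 high-risk papillomas measured all lay above all normal skins, while low-risk papillomas 1 and 2 lay below them. For low-risk papilloma 1 this is an average of -2.05 on its first array and -0.475 on the swapped array. The value on the swapped array lay above all normal skins. Carcinoma 6, at -0.56, was barely above its near copy normal skin 1, at -0.58. How many of all probes separate groups in this way was not counted. The differences were 0.53 ± 0.24, 0.54 ± 0.22 and 0.52 ± 0.22 (SE) in carcinomas, high-risk and low-risk papillomas, with limma adjusted p of 0.37, 0.143 and 0.144.

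Psmb7, the trypsin-like subunit, averaged -0.17 ± 0.17 in carcinomas, 0.21 ± 0.55 in high-risk papillomas and 0.06 ± 0.69 in low-risk papillomas, against -0.54 ± 0.43 in normal skin (SD, n = 6, 10, 8 and 5). The differences from normal skin were 0.37, 0.75 and 0.61 with limma adjusted p of 0.782, 0.136 and 0.229. Psmb6 averaged -0.06 ± 0.60 in carcinomas, 0.74 ± 0.86 in high-risk papillomas and -0.11 ± 0.57 in low-risk papillomas, against -0.20 ± 0.74 in normal skin. Without the near-identical pair Psmb6 was called in high-risk papillomas, together with Psma7, Psmd4 and both genes already called.

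The immunoproteasome subunits, which replace the catalytic ones under interferon, were outside the rule, and none of the 3 was called in any of the 6 comparisons. Psmb8 averaged -0.50 ± 0.63 in carcinomas, -0.69 ± 0.51 in high-risk papillomas, 0.00 ± 0.80 in low-risk papillomas and 0.00 ± 0.27 in normal skin. Psmb9 averaged -0.81 ± 0.26, -0.96 ± 0.28 and -0.76 ± 0.64 in those tumour groups and -0.07 ± 0.30 in normal skin. All carcinomas and high-risk papillomas measured for Psmb9 lay below all normal skins, and its smallest limma adjusted p was 0.0766, in high-risk papillomas. Psmb10 was 0.88 to 2.13 in the 4 high-risk papillomas of set E and -0.87 to -0.09 in the other 5 measured. The interferon response list had a median change of 0.35, -0.21 and -0.29 against normal skin in carcinomas, high-risk and low-risk papillomas.

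**Figure D4:**
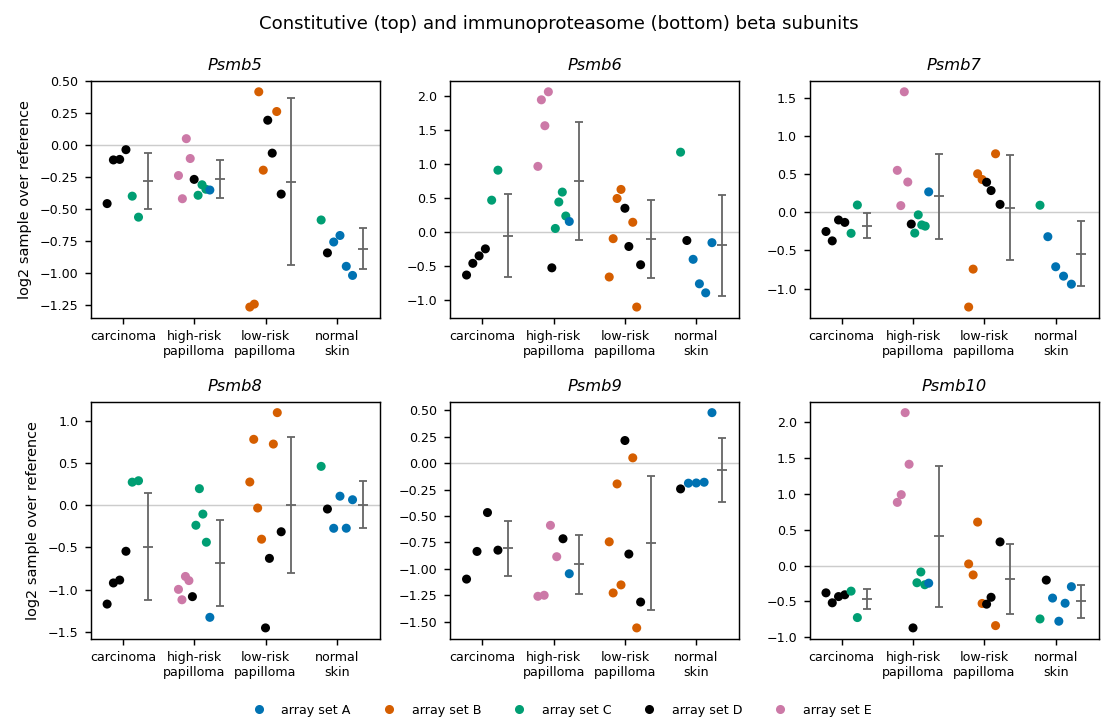
Log2 of sample over reference (y axes) of the constitutive catalytic subunits Psmb5, Psmb6 and Psmb7 and the immunoproteasome subunits Psmb8, Psmb9 and Psmb10, by group (x axes), coloured by array set, with mean ± SD beside the points. Psmb5 lies at -0.56 to 0.05 in carcinomas and high-risk papillomas and at -1.02 to -0.58 in normal skin, and Psmb10 is highest in the high-risk papillomas of set E.

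Among the regulators, Psmd14, the deubiquitinase of the lid, averaged 0.28 ± 0.39 in carcinomas, 0.83 ± 0.74 in high-risk papillomas, 0.60 ± 0.83 in low-risk papillomas and 0.22 ± 0.37 in normal skin (SD, n = 6, 10, 9 and 6). Psme1, part of the interferon-induced activator, averaged -0.02 ± 0.24 in carcinomas, -0.20 ± 0.28 in high-risk papillomas, -0.21 ± 0.44 in low-risk papillomas and -0.32 ± 0.32 in normal skin. Psme3 averaged 0.22 ± 0.50 in carcinomas, 0.53 ± 0.41 in high-risk papillomas, 0.90 ± 0.72 in low-risk papillomas and 0.10 ± 0.50 in 5 normal skins. Psme4, the activator known for histone turnover in testis, averaged -0.52 ± 0.42 in carcinomas, -0.97 ± 0.43 in high-risk papillomas, -0.66 ± 0.58 in low-risk papillomas and -0.57 ± 0.54 in normal skin. None of these 4 was called in any comparison. Psme2 had no probe named for it alone on the first design.

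Of 39 other genes of the pathway, 24 were tested: 0 were called between tumour groups and 0 in carcinomas against normal skin. In high-risk papillomas 1 was higher and 1 lower than in normal skin, and in low-risk papillomas 1 was higher, beside 5.02% and 7.55% of all probes called in these comparisons. Nfe2l2, the factor of the oxidative stress response, was 0.33 to 3.00 with a median of 1.75 in high-risk papillomas and 1.00 to 3.10 with a median of 1.14 in low-risk papillomas. Normal skins 1 to 6 had 1.85, 0.05, -1.08, -0.15, -0.02 and -0.38. Only normal skin 1, the near copy of carcinoma 6, lay among the tumours. The rise was 3.08-fold in high-risk papillomas (1.62 ± 0.40, log2, SE, limma adjusted p = 0.0167) and 3.20-fold in low-risk papillomas (1.68 ± 0.41, adjusted p = 0.0111). In carcinomas the difference of 1.37 ± 0.45 did not pass (adjusted p = 0.149). Akirin2, which brings proteasomes into the nucleus, was -0.80 to 1.33 in high-risk papillomas. It was -0.83 to 2.245 in carcinomas and -0.70 to 1.60 in low-risk papillomas. Normal skin 1 had -0.82 and the other 5 normal skins 2.23 to 3.28. The difference in high-risk papillomas was -2.06 ± 0.51 (limma adjusted p = 0.017), and Akirin2 was not called in the other tumour groups. In array set C the high-risk papillomas had Nfe2l2 at 0.33 to 1.33, below normal skin 1, and Akirin2 at -0.80 to 0.67, above it. Neither gene was read with array set as a block.

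The papillomas of unknown risk were read on the second design, whose probes differ, so their values stand beside those above with no comparison. The core's median over 14 genes ran from -0.04 to 1.34 with a median of 0.38 over the 10 tumours, and the cap's over 17 genes from -0.10 to 0.65 with a median of 0.23. Of the core genes 11 and of the cap genes 13 had a median above 0. Psmd12 ran from -0.26 to 1.45 with a median of 0.56, and Psma7 was above 0 in 10 of 10, from 0.37 to 2.15. Psmd14 was above 0 in 10 of 10 with a median of 1.13, and Psmb6 below 0 in 10 of 10 with a median of -0.90. Papilloma 4 had the highest core median, 1.34, with an array SD of 2.39, the widest of the 10. Of 20 genes with more than 1 probe, the medians of the probes differed by a median of 0.47 and by up to 1.41 in Psme4, and in 3 genes they lay on both sides of 0. Psme2, the partner of Psme1, had a median of -1.18.

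**Figure D5:**
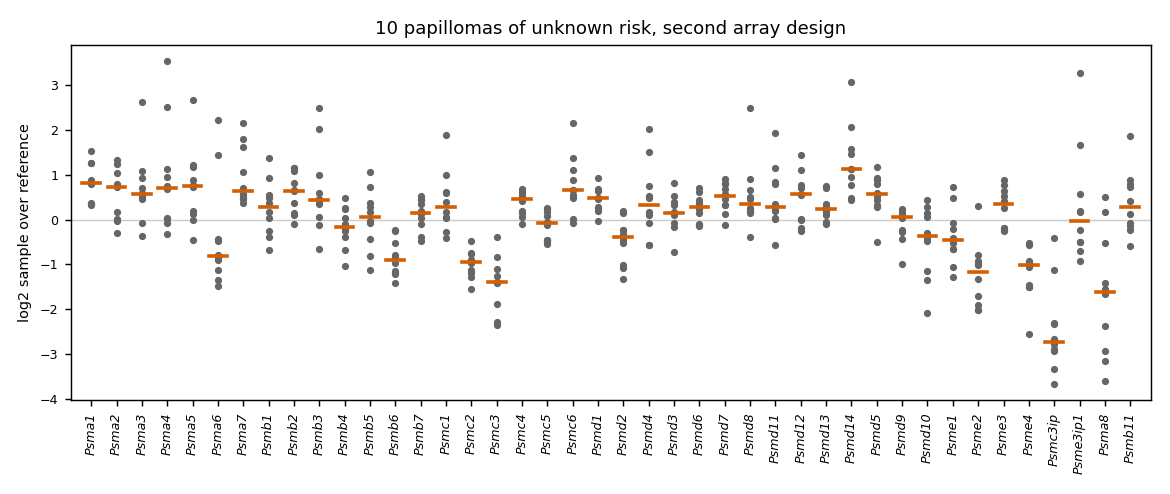
Log2 of sample over reference (y axis) of 42 proteasome genes (x axis, by role) in the 10 papillomas of unknown risk, with probes of a gene averaged. Points are single tumours and orange bars are medians. Psma7 and Psmd14 lie above 0 and Psmb6 below 0 in 10 of 10 tumours.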

How the data were processed

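RNA of 31 labelled tissues on 32 arrays and of 10 papillomas of unknown risk was measured on 2-colour arrays. The deposited values are log2 ratios made by the authors; their direction, normalization and spot filter are not given in the sources used here. Base 2 was inferred: the largest value has a size of 15.02, within the range of a 16-bit scanner. The direction is likely Cy5 over Cy3, so signs were changed where the labels put the sample in Cy3, which gave keratinocyte markers above the reference on 30 of 31 such labelled arrays and on 10 of 10 of the second design. The exception was the first array of low-risk papilloma 1, whose swapped repeat was averaged with it. The number of arrays limits the precision, and spot brightness was not analysed here.

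Arrays were centred on their median. Probes measured in at least 3 samples of every group and 70% of all were tested, 1 per symbol beside those with no symbol, 18901 in all, by limma 3.58.1 (R 4.3.3). A single model held all 4 groups, with 6 comparisons and Benjamini-Hochberg adjustment over all probes, threshold 0.05, two-sided. Of 21997 probes, 16076 had 1 symbol, 288 several and 5633 none, per the platform annotation. The labels do not say that every sample came from its own animal, and 6 high-risk and 2 low-risk tumours share an animal code. The fit was tested on simulated data, with 100 probes changed at each size. The simulated noise was independent between samples, without array sets or near-identical arrays, so recovery in the real data may differ. Over the 6 comparisons the fit recovered 12% to 33% of simulated log2 changes of 1 and 66% to 90% of changes of 2. A gene that was not called may therefore still differ. Genes named in each comparison were those called, or the 4 with the smallest p where under 4 were called, beside catalytic subunits, Psmd4, Psmd14 and activators. Members and lists were chosen with earlier results of these data known. Replicate numbers do not pair samples. Alternatives covered scaling, probe filters, the swapped array, blocks, weights and left-out samples. None of the 5 listed genes for ubiquitin and its activating enzyme was tested.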

Additional observations from a re-analysis of the deposited data

Results flagged for a closer look

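Among 83 sets of values, the 21 named genes in each group, 9 held a sample that stood far from the rest of its group by the gap to its neighbour over the group's range, or 10.8%, where about 1 in 20 is flagged by chance. Low-risk papilloma 9 accounted for 4 of them. It had Psmb4 at 2.65, where the other low-risk papillomas ran from -0.70 to 0.86, Psmb2 at -1.60 (others -0.25 to 1.06), Psmd12 at 0.11 (others 1.09 to 1.86) and Psme3ip1 at -2.04 (others -0.67 to 0.54). High-risk papilloma 3 had Psmb7 at 1.58 (others -0.27 to 0.55) and Psme3ip1 at -1.25 (others -0.39 to 0.48). High-risk papilloma 10 had Psmb4 at 1.69 (others -0.89 to 0.21). The near-identical pair gave the last: Psma7 was 0.23 in carcinoma 6 (others -0.24 to -0.12), and Psmb6 was 1.17 in normal skin 1 (others -0.90 to -0.13).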

How the results depend on the processing

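Single-gene changes were followed under the alternatives only for the proteasome genes called in the fit above, each in the comparison that called it. Of these 0 turned direction, which carries little weight because the genes were picked for their calls. Counts of called genes moved. Calls over all probes moved too where they are given. Where they are not given, a count cannot show whether the proteasome genes moved more than all probes did. No count here is read as a result about the proteasome genes. With array weights the counts of called proteasome genes were 1 in high-risk against low-risk papillomas, 2 in carcinomas against low-risk papillomas, and 7 in carcinomas, 10 in high-risk and 12 in low-risk papillomas against normal skin. Calls over all 18901 probes then were 1250, 1545, 3454, 3961 and 4150 in the same comparisons. With the array set as a block they were 1 in carcinomas and 0 in either papilloma group against normal skin, where all probes gave 14 calls in carcinomas, 42 in high-risk and 7 in low-risk papillomas. With probes measured in every sample they were 3 in low-risk and 0 in high-risk papillomas, with fewer genes tested. With only the 2 groups in the fit 3 were called in low-risk papillomas. With the database number range as a block 1 was called in high-risk papillomas and 0 in carcinomas. The cause was not tested. Scale and quantile normalization gave 3 each in carcinomas. Without the near-identical pair 5 were called in high-risk papillomas (1363 of all probes) and 3 in carcinomas (484). Leaving out 1 sample at a time gave 0 to 1 between high-risk and low-risk papillomas, 0 to 1 in carcinomas against low-risk papillomas, 0 to 0 in carcinomas against high-risk papillomas, and, against normal skin, 1 to 3 in carcinomas, 2 to 5 in high-risk and 2 to 9 in low-risk papillomas. The lowest low-risk count, 2, was without normal skin 3 or normal skin 6, with 3 without low-risk papilloma 5. The 5 in high-risk papillomas was without normal skin 1, and the 3 in carcinomas without normal skin 1 or 4, with 2 without normal skin 2. Psmd12 passed in every such fit, at -2.90 to -2.47 in carcinomas, -2.08 to -1.74 in high-risk papillomas and -2.36 to -2.08 in low-risk papillomas. Replicate numbers do not pair the samples: the median r was -0.02 for 37 same-numbered pairs and 0.01 for 317 others. With the replicate block 0, 0 and 0 genes were called between tumour groups and, against normal skin, 1 in carcinomas, 2 in high-risk papillomas (Psme3ip1 and Psmb2) and 4 in low-risk papillomas (Psmd12, Psme3ip1, Psmd1 and Psmd9).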
